A study of Zea mays with 18 samples.

Results

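The microRNAs (miRNAs) miR2275 and miR482 were followed through the growing leaf of maize (Zea mays, hybrid ADA313), in seedlings with chilled nights and in control seedlings. All probe sets whose name starts with zma-miR2275 or zma-miR482 were taken, which gave 9 of the 228 maize probe sets of the authors' table. The zma-miR2275b-3p and zma-miR2275c-3p probe sets have the same values and were counted once, which leaves 8 of 147 distinct profiles. These are 4 profiles of 5p arms (zma-miR2275a-5p, zma-miR2275b-5p, zma-miR2275d-5p and zma-miR482-5p) and 4 profiles of 3p arms (zma-miR2275a-3p, zma-miR2275b/c-3p, zma-miR2275d-3p and zma-miR482-3p), written below without the prefix for maize. The 5p arm of miR2275c was not analysed here.

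Chilled seedlings had nights at 4 °C, and control seedlings had nights at 20 °C. Day temperature (25 °C, for 16 h before 8 h of dark), light (15000 lux) and air humidity (70%) did not differ between them. From the leaf of rank 4, RNA was taken of dividing tissue (the meristem), expanding tissue (the elongation zone) and finished tissue (the mature zone), so that chilled and control leaves gave 6 groups of 3 arrays each. The labels call the arrays biological replicates and do not say whether a replicate pooled seedlings or how long the chilling lasted. The messenger RNAs that mark each zone are not measured by a miRNA array, so the zone labels could not be checked against them.

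A plant miRNA is cut from a hairpin precursor as a duplex of a 5p and a 3p strand, of which usually 1 is loaded into an Argonaute protein and guides it to target RNAs. The miR2275 family is known from grass anthers, where its 3p strand guides the cutting of long non-coding transcripts that a Dicer-like enzyme then processes into phased small interfering RNAs around meiosis. The miR482 family is grouped with miR2118, which starts another class of phased small RNAs in young grass anthers, and in many dicots both families target transcripts of disease resistance genes with a nucleotide-binding site. In the maize B73 assembly (Zm-B73-REFERENCE-NAM-5.0) as annotated by RefSeq, the genes MIR2275a and MIR2275b are direct neighbours, with no other annotated gene between them, while MIR2275c, MIR2275d and MIR482 stand apart from them and from each other.

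Signals are the authors' average log2 signal of the 3 arrays of a group, so no value of a single array can be given. The spread of each probe set was worked back from the ANOVA p-value in the authors' deposited table, and the SD within groups of the 8 profiles ranged from 0.0976 to 0.493 log2 units. The table holds only probe sets with an ANOVA p up to 0.040982, so each listed profile had to vary among the 6 groups, and that it did is no finding. Adjusted p-values come from a moderated test with limma and were corrected over all 228 probe sets of a comparison. A difference was called when its adjusted p was under 0.05. A signal of log2 2 was used as a working limit below which a level was described as low. It is not a limit of the authors. In bulk tissue fewer cells with an miRNA and less of it per cell cannot be told apart.

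Most levels were low. Of the 48 averages of the 8 profiles, 39 lay under log2 2 (81.3%), against 395 of the 882 averages of all 147 profiles (44.8%). The range was from 0.83 to 3.79. The profiles of miR2275a-5p, miR2275b-5p, miR482-5p and miR2275d-3p reached log2 2 in at least 1 group, and the other 4 stayed under it in all 6 groups. Since probes differ in affinity, signals of different miRNAs or arms on an array are not ranked against each other here; differences are between groups for 1 probe set.

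The 5p strand of miR2275a had its highest signal in the elongation zone. Its log2 signal in the meristem, elongation zone and mature zone was 2.54, 3.79 and 0.83 in chilled leaves, against 2.35, 3.44 and 1.2 in control leaves. In order of level, both elongation zones came first, then both meristems, then both mature zones. The gaps between these 3 pairs were 0.90 and 1.15, each over 2 SE of a difference (SE 0.38), and the gaps within the pairs were 0.19 to 0.37, each under 1 SE.

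The neighbouring gene's miR2275b-5p peaked in the same zone. Its log2 signal along the zones was 1.63, 2.98 and 0.95 in chilled leaves, against 1.30, 2.33 and 1.09 in control leaves. Both elongation values exceeded all other values, by at least 0.70 (SE 0.35), and both mature values were the lowest. The 4 meristem and mature values followed each other at gaps of 0.14 to 0.33, each under 1 SE.

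The miR2275d-5p strand, from a gene elsewhere, had no such peak. Its log2 signal along the zones was 1.85, 1.70 and 0.87 in chilled leaves, against 1.61, 1.51 and 1.00 in control leaves. The 4 meristem and elongation values followed each other at gaps of 0.09 to 0.15, and the gap of 0.51 to the mature values was the only one over 2 SE (SE 0.24).

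The miR482-5p strand was highest in the meristem. Its log2 signal along the zones was 2.88, 1.45 and 1.04 in chilled leaves, against 2.46, 1.76 and 1.17 in control leaves. Both meristem values stood above all others, with a gap of 0.70 (SE 0.30), and each further step down was at most 0.31 and not over 2 SE. These orders hold for the averages as deposited. With median subtraction the mature zone came out above the elongation zone for miR2275b-5p (by 1.64 in chilled and 0.045 in control leaves) and, in chilled leaves, for miR2275a-5p (0.71), and above the meristem for miR482-5p (1.85 in chilled and 0.13 in control leaves).

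**Figure D1:**
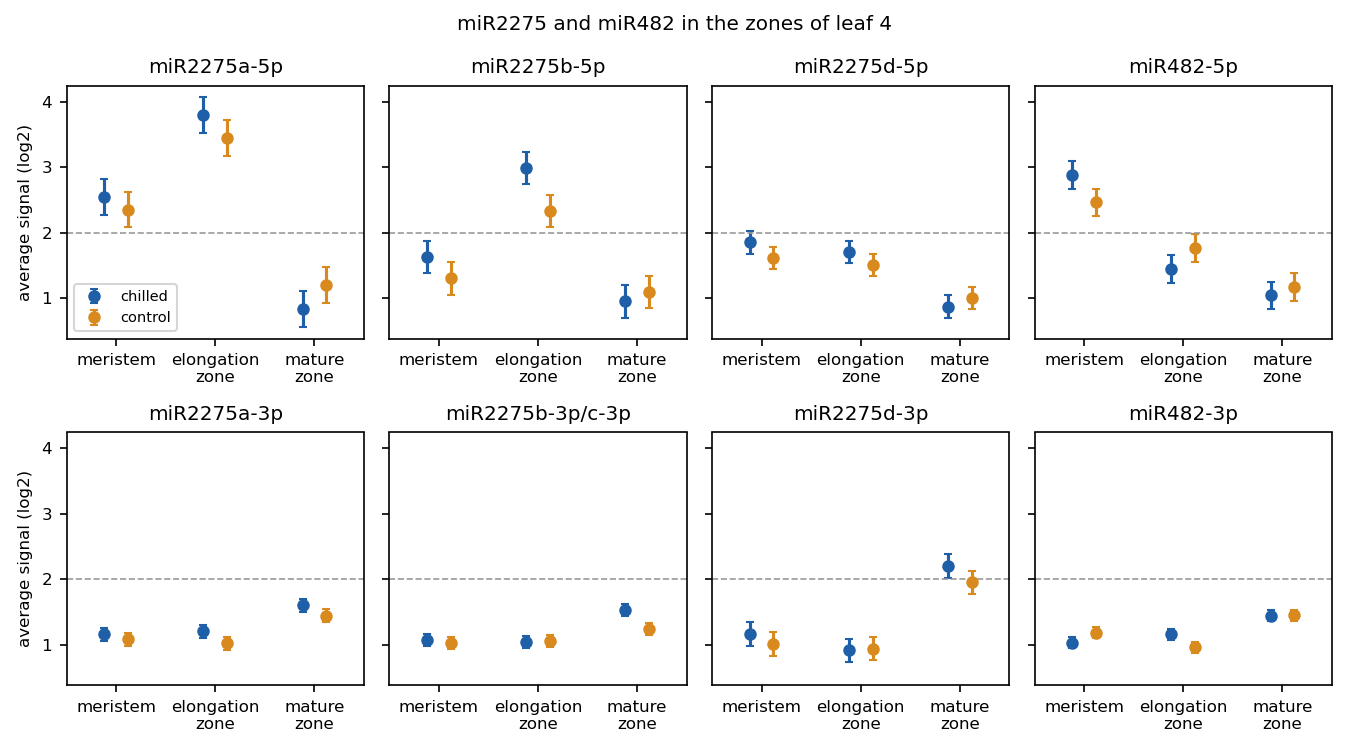
Average log2 signal (vertical axis) of the 8 profiles in the 3 zones, with chilled leaves in blue to the left of control leaves in orange; bars are the SE of an average of 3 arrays from the recovered, moderated spread, and the dashed line is the working limit of log2 2. The miR2275a-5p and miR2275b-5p points are highest in the elongation zone, those of miR482-5p in the meristem, and those of the 3p arms in the mature zone, where miR2275d-3p reaches 2.20 in chilled and 1.95 in control leaves, while with median subtraction the mature zone is highest for miR482-5p and miR2275b-5p in both conditions and for miR2275a-5p in chilled leaves.

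The 3p strands, which hold the known guides, were under log2 2 in dividing and elongating tissue. The miR2275a-3p log2 signal along the zones was 1.16, 1.2 and 1.60 in chilled leaves, against 1.08, 1.02 and 1.44 in control leaves. The shared miR2275b/c-3p profile had 1.07, 1.04 and 1.53 in chilled leaves, against 1.03, 1.06 and 1.24 in control leaves. The highest signal of both was in the chilled mature zone, followed by the control mature zone.

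The miR2275d-3p strand was the only 3p strand to reach log2 2, in the chilled mature zone. Its log2 signal along the zones was 1.16, 0.91 and 2.20 in chilled leaves, against 1.01, 0.94 and 1.95 in control leaves. The miR482-3p strand had 1.03, 1.16 and 1.44 in chilled leaves, against 1.18, 0.96 and 1.45 in control leaves. For both, the mature values came first, with a gap to the next value of 0.79 (SE 0.25) for miR2275d-3p and of 0.26 (SE 0.12) for miR482-3p.

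The step out of the division zone was compared first. In control leaves miR2275a-5p rose to 3.44 in the elongation zone, against 2.35 in the meristem (difference 1.09, SE 0.38, adjusted p = 0.0299). There miR2275b-5p rose to 2.33 in the elongation zone, against 1.30 in the meristem (1.03, SE 0.35, adjusted p = 0.0296). With quantile normalization of the averages both rises stayed above 0, but at 0.57 and 0.34 neither was called. Nor was either with the recovered SD enlarged 1.2 times. Median subtraction of the averages could only enlarge these rises, since the group medians differed by -0.13. The other 6 profiles were not called, among them miR482-5p at 1.76 in the elongation zone and 2.46 in the meristem (-0.70, SE 0.30, adjusted p = 0.0724).

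In chilled leaves the same comparison gave 3 calls. The miR2275b-5p strand rose to 2.98 in the elongation zone, against 1.63 in the meristem (1.35, SE 0.35, adjusted p = 0.00406). The miR2275a-5p strand rose to 3.79 in the elongation zone, against 2.54 in the meristem (1.25, SE 0.38, adjusted p = 0.0130). With quantile normalization these differences were 0.41 and 0.66 and not called. The miR482-5p strand fell to 1.45 in the elongation zone, against 2.88 in the meristem (-1.43, SE 0.30, adjusted p = 0.00125), and it stayed below 0 and called under both scalings. The 5p strands of miR2275a and miR2275b on the one side and of miR482 on the other moved in opposite directions here, while the 3p strands differed by -0.25 to 0.13 and none of them was called.

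Set beside the whole table, 2 of 8 profiles higher and 0 of 8 lower in the control elongation zone stand beside 36 and 17 of the 147 distinct profiles. Of all probe sets, with repeated profiles counted each time, 35.1% were called higher and 11.4% lower than in the meristem. No profile was called lower by limma there, and 3 of the 8 had an unadjusted p under 0.05. In chilled leaves 2 of 8 were higher and 1 lower, beside 44 and 22 of the 147 distinct profiles, and 36.8% and 14.9% of all probe sets. The median difference of the 8 profiles was -0.065 in control and 0.005 in chilled leaves, against 0.05 and 0.13 over all profiles. With quantile normalization the split over all probe sets was 44 higher and 47 lower in control leaves, beside 80 and 26 as deposited, and 65 and 61 in chilled leaves, beside 84 and 34.

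Maturation was compared next. In control leaves miR2275a-5p fell to 1.2 in the mature zone, against 3.44 in the elongation zone (difference -2.24, SE 0.38, adjusted p = 0.000507), and the difference was -1.59 with quantile normalization and -0.955 with median subtraction. In chilled leaves miR2275a-5p fell to 0.83, against 3.79 (-2.96, SE 0.38, adjusted p = 2.07e-05), which became 0.71 with median subtraction. The miR2275b-5p strand fell to 0.95 in the chilled mature zone, against 2.98 in the elongation zone (-2.03, SE 0.35, adjusted p = 0.000248), and to 1.09 in the control mature zone, against 2.33 (-1.24, SE 0.35, adjusted p = 0.0104). With median subtraction these differences were 1.64 and 0.045, and with quantile normalization the control fall was -0.68 and not called. Median subtraction moved these comparisons by the gap between the group medians, -3.67 in chilled and -1.285 in control leaves. The median difference over all probe sets was -0.81 in chilled and -0.575 in control leaves.

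The miR2275d-5p strand fell in chilled leaves to 0.87 in the mature zone, against 1.70 in the elongation zone (-0.83, SE 0.24, adjusted p = 0.00986), which was not called with quantile normalization (-0.39) and became 2.84 with median subtraction. In control leaves it stood at 1.00 in the mature zone and 1.51 in the elongation zone (-0.51, adjusted p = 0.0968). The miR482-5p strand was not called between these zones, with -0.41 in chilled leaves (adjusted p = 0.255) and -0.59 in control leaves (adjusted p = 0.125).

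As deposited, the 3p strands moved the other way. The miR2275d-3p strand rose to 2.20 in the chilled mature zone, against 0.91 in the elongation zone (1.29, SE 0.25, adjusted p = 0.000870), and to 1.95 in the control mature zone, against 0.94 (1.01, SE 0.25, adjusted p = 0.00625). The miR482-3p strand rose by 0.28 in chilled leaves (SE 0.12, adjusted p = 0.0485) and by 0.49 in control leaves (SE 0.12, adjusted p = 0.00502). The miR2275a-3p strand rose by 0.40 in chilled leaves (SE 0.14, adjusted p = 0.0241) and by 0.42 in control leaves (SE 0.14, adjusted p = 0.0223).

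The miR2275b/c-3p profile rose by 0.49 in chilled leaves (SE 0.13, adjusted p = 0.00559) and was not called in control leaves (0.18, adjusted p = 0.265). With quantile normalization every rise of a 3p strand was larger than as deposited, so that none turned below 0 is no support. Median subtraction could not turn a rise, since it raised every difference here. The medians of the mature and elongation zones differed by -3.67 in chilled and -1.285 in control leaves. The sizes depend on the scaling. In chilled leaves miR2275a-3p, at 0.40 as deposited, was at 2.12 with quantile normalization and 4.07 with median subtraction. There miR2275d-3p, at 1.29, was at 4.38 and 4.96. With the recovered SD enlarged 1.2 times the rises of miR2275a-3p were not called in either condition, nor was that of miR482-3p in chilled leaves. Except for miR2275d-3p in the chilled mature zone, the signals on both sides of these rises were under log2 2.

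Between the mature and the elongation zone 4 of 8 profiles were higher and 3 lower in chilled leaves, beside 19 and 86 of the 147 distinct profiles, and 10.1% and 54.8% of all probe sets. In control leaves 3 were higher and 2 lower, beside 11 and 68 of the distinct profiles, and 7.46% and 42.1% of probe sets. The median difference of the 8 profiles was -0.065 in chilled and -0.165 in control leaves, against -0.86 and -0.59 over all profiles. The split over all probe sets depends on the scaling, with 52 higher and 39 lower in chilled and 40 and 32 in control leaves with quantile normalization, and 186 and 8 in chilled and 111 and 25 in control leaves with median subtraction.

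Over the whole span, miR482-5p fell to 1.04 in the chilled mature zone, against 2.88 in the meristem (-1.84, SE 0.30, adjusted p = 0.000116), and to 1.17 in the control mature zone, against 2.46 (-1.29, SE 0.30, adjusted p = 0.00237). With median subtraction these became 1.85 and 0.13. The miR2275a-5p strand fell by 1.71 in chilled leaves (SE 0.38, adjusted p = 0.00142) and by 1.15 in control leaves (SE 0.38, adjusted p = 0.0207), which became 1.98 and 0.27 with median subtraction. The miR2275d-5p strand fell by 0.98 in chilled leaves (SE 0.24, adjusted p = 0.00247) and by 0.61 in control leaves (SE 0.24, adjusted p = 0.0409), which became 2.71 and 0.81. With the recovered SD enlarged 1.2 times the control falls of miR2275a-5p (adjusted p = 0.0550) and miR2275d-5p (adjusted p = 0.0913) were not called.

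The miR2275b-5p strand did not differ by a call between mature zone and meristem, with -0.68 in chilled leaves (adjusted p = 0.0856) and -0.21 in control leaves (adjusted p = 0.576). Of the 3p strands miR2275d-3p was higher by 1.04 in the chilled mature zone (SE 0.25, adjusted p = 0.00244) and by 0.94 in the control mature zone (SE 0.25, adjusted p = 0.00622). All 4 profiles of 3p strands were called higher in the chilled mature zone than in the meristem, and miR2275d-3p and miR2275a-3p were in control leaves. The control rise of miR2275a-3p (0.36) was not called with the enlarged SD (adjusted p = 0.0863), while with quantile normalization all 4 were called in control leaves, with miR482-3p at 1.21 (adjusted p = 7.18e-07) and miR2275b/c-3p at 0.31 (adjusted p = 0.0464). In chilled leaves this made 4 of 8 profiles higher and 3 lower, beside 37 and 69 of the 147 distinct profiles, and 32.9% and 44.7% of all probe sets. In control leaves it made 2 and 3, beside 21 and 58 of the distinct profiles, and 19.3% and 39.0% of probe sets. With quantile normalization the split over all probe sets was 91 higher and 86 lower in chilled and 77 and 73 in control leaves, and with median subtraction 188 and 20 and 145 and 40.

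In the mature zone the median of the 228 probe sets, which median subtraction removes, lay at 2.18 in chilled and 4.59 in control leaves, against 5.87 and 6.0 in the meristem. Over the 147 distinct profiles the medians were closer, with 1.55 in the chilled and 1.68 in the control mature zone. The median of the 8 profiles of miR2275 and miR482 was 1.24 in the chilled and 1.22 in the control mature zone, against 1.40 and 1.24 in the meristem. Between mature zone and meristem the median difference over all probe sets was -0.195 in chilled and -0.3 in control leaves.

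The arms of 1 precursor were also followed together, as the 5p minus 3p difference of each group. Which arm is above the other is not read from it, since the 2 probes may differ in affinity. The change of this difference between zones is free of a constant probe affinity only where signals lie well above background. Whether these low signals do was not tested. For miR2275a the difference along the zones was 1.38, 2.59 and -0.77 in chilled leaves, against 1.27, 2.42 and -0.24 in control leaves. For miR2275b it was 0.56, 1.94 and -0.58 in chilled leaves, against 0.27, 1.27 and -0.15 in control leaves. The 3p signal used for miR2275b is the profile shared with miR2275c-3p, so it cannot be assigned to the miR2275b precursor alone. For miR2275a and miR2275b the 5p minus 3p difference was highest in the elongation zone and lowest in the mature zone.

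For miR2275d the difference was 0.69, 0.79 and -1.33 in chilled leaves, against 0.60, 0.57 and -0.95 in control leaves. For miR482 it was 1.85, 0.29 and -0.40 in chilled leaves, against 1.28, 0.80 and -0.28 in control leaves. In all 4 precursors and both conditions it was lower in the mature zone than in the elongation zone, with changes of -0.69 to -3.36, and than in the meristem, with changes of -0.42 to -2.25. Median subtraction cannot alter these changes. With quantile normalization, a check chosen after seeing the data, all of them stayed below 0, down to -4.76 and -4.94. That setting enlarged the rises of the 3p strands into the mature zone, so this is no separate support. The changes are made of the same averages as the comparisons above and are descriptions without a test. The spread of a difference between arms cannot be worked back from the averages.

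**Figure D2:**
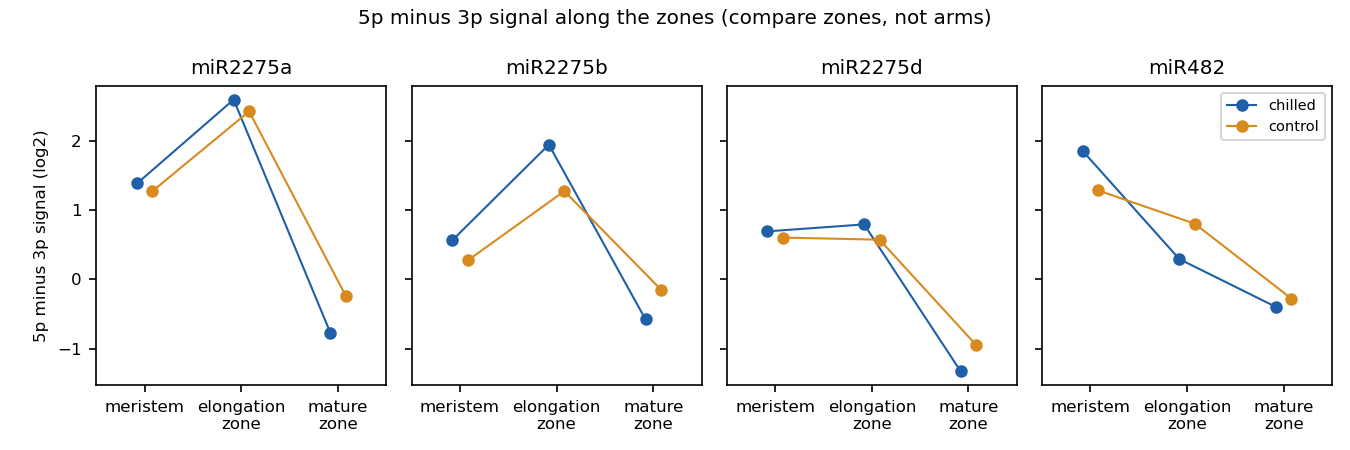
Log2 signal of the 5p arm minus that of the 3p arm (vertical axis) for the 4 precursors with both arms along the zones, in chilled (blue, left) and control leaves (orange, right); points are single differences of group averages, without an error, and lines join the zones of 1 condition. In each panel the mature points are the lowest of their condition, from -1.33 to -0.15. Their sign has no meaning, since the probes of the arms may differ in affinity. For miR2275b the 3p arm is the profile shared with miR2275c-3p.

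A low signal that is highest in the mature zone occurred in other miRNAs too. Of the 41 profiles under log2 2 in all 6 groups, 17 had their mature signal above both other zones in chilled and in control leaves. Among them were 3 of the 4 profiles of miR2275 and miR482 in that set, and 14 of the 37 others. The part of the low signal in these small differences was not tested.

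The response to chilling was then compared within each zone, which the study set out to relate to leaf growth. The difference between chilled and control leaves was called for none of the 8 profiles in any zone by limma. In the meristem 0 of 8 were called by limma, beside 3 higher and 5 lower of the 147 distinct profiles and 8.33% of all probe sets. None of the 8 had an unadjusted p under 0.05. The differences ran from -0.15 to 0.42, with 7 of 8 above 0 and a median of 0.17, against -0.01 over all profiles. The largest was that of miR482-5p, with 2.88 in the chilled and 2.46 in the control meristem (0.42, 95% interval -0.22 to 1.06, adjusted p = 0.616).

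In the elongation zone 0 of 8 were called by limma, beside 1 higher and 1 lower of the 147 distinct profiles and 0.877% of all probe sets. None of the 8 had an unadjusted p under 0.05. The differences ran from -0.31 to 0.65, with 5 of 8 above 0 and a median of 0.185, against 0.04 over all profiles. The largest was that of miR2275b-5p, with 2.98 in the chilled and 2.33 in the control elongation zone (0.65, 95% interval -0.10 to 1.40, adjusted p = 0.441). For miR2275a-5p the difference was 0.35 (95% interval -0.47 to 1.17, adjusted p = 0.764), and for miR482-5p it was -0.31 (-0.95 to 0.33, adjusted p = 0.764).

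In the mature zone 0 of 8 were called by limma, beside 7 higher and 14 lower of the 147 distinct profiles and 14.0% of all probe sets. Of the 8, 1 had an unadjusted p under 0.05. This was miR2275b/c-3p, with 1.53 in the chilled and 1.24 in the control mature zone (0.29, 95% interval 0.01 to 0.57, adjusted p = 0.218). The differences of the 8 profiles ran from -0.37 to 0.29, with 3 of 8 above 0 and a median of -0.07, against -0.01 over all profiles. With quantile normalization miR2275d-3p, miR2275b/c-3p and miR2275a-3p were called higher in the chilled mature zone, by 1.38, 1.29 and 0.90. As deposited these differences were 0.25, 0.29 and 0.16 and not called, so the calls depend on the scaling. Over all 228 probe sets quantile normalization called 28 higher and 22 lower. With median subtraction all 8 were called higher, by 2.04 to 2.70, as were 204 of all 228 probe sets. That setting shifts all differences here by the gap between the group medians (-2.405), although the median difference over all probe sets was 0. Its calls are therefore not read as a response to chilling.

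**Figure D3:**
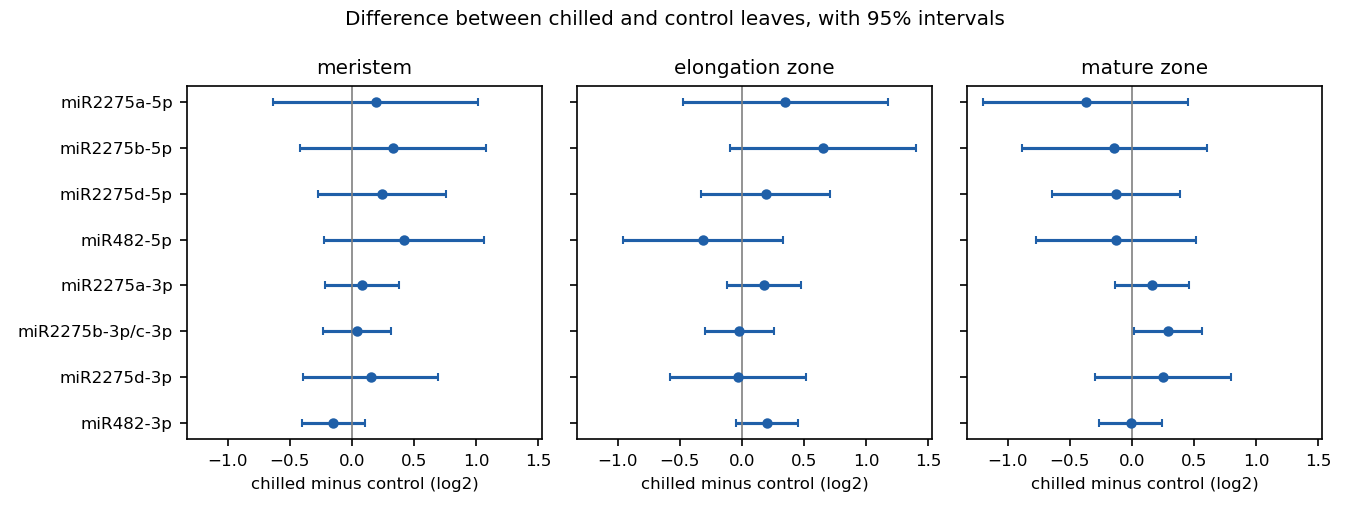
Difference in average log2 signal between chilled and control leaves (horizontal axis) for the 8 profiles in each zone; points are differences and bars 95% intervals from the moderated, recovered spread, not corrected for multiple tests. The intervals include 0 for all but miR2275b/c-3p in the mature zone, and they reach 0.25 to 0.82 log2 units to each side.

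The widths of these intervals set what could be seen. The half-width was 0.82 for miR2275a-5p, 0.75 for miR2275b-5p and 0.64 for miR482-5p, and 0.25 for miR482-3p. A test of whether the chilling difference itself differed between the 3 zones called 0 of 8 profiles by limma's moderated F test. It called 10 of the 147 distinct profiles and 7.02% of all probe sets. None of the 8 had an unadjusted p under 0.05. The lowest adjusted p was 0.455, for miR482-3p. With quantile normalization 3 of the 8, the 3p strands of miR2275, were called, beside 39 of the 228 probe sets. With median subtraction all 8 were called, beside 194 of the 228. Median subtraction shifts the chilling difference by unlike amounts in the zones, so it adds to this test by construction. The group medians differed by -0.135 in the meristem, -0.02 in the elongation zone and -2.405 in the mature zone.

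Other families linked to phased small RNAs were set beside these 2. The miR390 family, which guides the cutting of TAS3 transcripts, had a 5p profile, miR390a/b-5p, at 11.31, 11.28 and 10.22 along the zones of chilled leaves, against 11.50, 11.45 and 9.82 in control leaves. The miR390a/b-3p profile fell in the chilled mature zone to 1.85, against 4.80 in the control mature zone (-2.95, SE 0.46, adjusted p = 0.000367), a difference that was -0.914 with quantile normalization and -0.545 with median subtraction. The miR2118 family was represented by 6 profiles, all with averages from 0.75 to 1.59.

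Of these 8 profiles of miR390 and miR2118, 1 was called higher and 4 lower in the chilled mature zone than in the elongation zone, and 0 higher and 2 lower in control leaves. Over all distinct profiles 19 of 147 were higher and 86 lower in chilled leaves, and 11 and 68 in control leaves. With median subtraction 3 of the 4 chilled falls, those of miR390a/b-5p, miR2118b and miR2118c, were above 0. The 2 lower in control leaves were both arms of miR390. The miR390a/b-5p difference of -1.63 was -1.35 with quantile normalization and -0.345 with median subtraction, and the miR390a/b-3p difference of -3.73 was -2.75 and -2.45. The chilled riser was miR2118g, at 1.59 in the mature zone against 1.15 in the elongation zone (0.44, SE 0.17, adjusted p = 0.0341). Between mature zone and meristem 1 was higher and 5 lower in chilled leaves, of which only the fall of miR390a/b-3p stayed below 0 with median subtraction (-3.99, against -7.67 as deposited), and 0 higher and 2 lower in control leaves. The same comparison gave 37 higher and 69 lower of the 147 distinct profiles in chilled leaves, and 21 and 58 in control leaves. Between elongation zone and meristem 1 was called higher and 1 lower in chilled leaves, beside 44 and 22 of the 147. In control leaves limma called 0 of 8, with 1 at an unadjusted p under 0.05, beside 36 higher and 17 lower of the 147. Under chilling limma called 0 of 8 in the meristem and the elongation zone, with 0 and 2 at an unadjusted p under 0.05, and 1 of 8 in the mature zone, the miR390a/b-3p profile. Of the 147 distinct profiles, 3 were higher and 5 lower in the meristem, 1 and 1 in the elongation zone, and 7 and 14 in the mature zone.

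The families known to target the small RNA machinery itself, miR162 (Dicer-like) and miR168 (Argonaute), gave 4 profiles. They are miR162-5p, miR162-3p, miR168a-3p and miR168b-3p, and which of these arms act as guides was not tested. Of these, 3 were lower in the chilled mature zone than in the elongation zone and all 4 were in control leaves, where 54.8% and 42.1% of all probe sets were. With median subtraction all 3 of the chilled and 1 of the control differences were above 0, and with quantile normalization 1 (miR162-5p) and 3 were. Between mature zone and meristem 2 were lower in chilled and 3 in control leaves, beside 44.7% and 39.0% of all probe sets, with 2 and 1 of them above 0 with median subtraction and 0 and 1 with quantile normalization. Between elongation zone and meristem miR162-5p was higher in chilled leaves (2.60, SE 0.80, adjusted p = 0.0131), beside 36.8% of all probe sets. For control leaves limma called 0 of 4, with 0 at an unadjusted p under 0.05, beside 35.1% of all probe sets higher and 11.4% lower. Under chilling limma called 0 of 4 in each zone, with 0 at an unadjusted p under 0.05. Of all probe sets 8.33% were called in the meristem, 0.877% in the elongation zone and 14.0% in the mature zone.

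**Figure D4:**
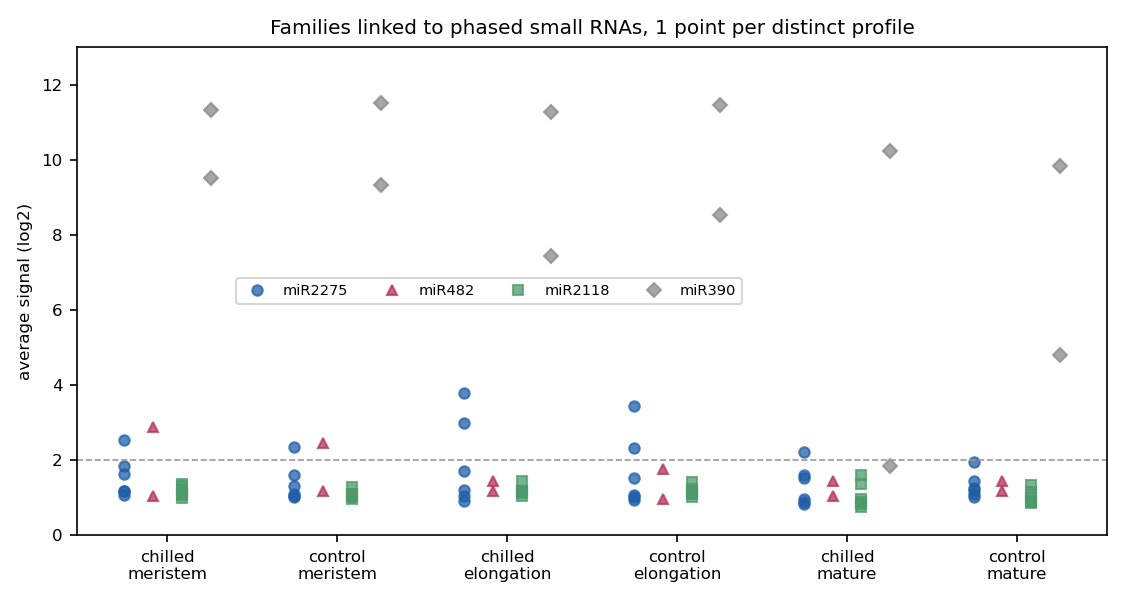
Average log2 signal (vertical axis) of the 16 distinct profiles of miR2275, miR482, miR2118 and miR390 in each group, 1 point per profile, with chilled left of control in each zone; the dashed line is log2 2. The points of miR2275, miR482 and miR2118 lie between 0.75 and 3.79, and those of miR390 between 1.85 and 11.50.

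The profiles most like each miRNA were sought by the root-mean-square (RMS) difference over the 6 averages, after each profile's own mean was subtracted. For miR2275a-5p the nearest outside the 2 families were miR169m/n/q-5p (RMS 0.35 log2 units), miR171a-3p (0.41) and miR171n-3p (0.42). For miR2275b-5p they were miR166i-5p (0.31), miR396g-5p/miR396h (0.35) and miR399b-3p (0.35), and its distance to miR2275a-5p was 0.47. The 2 neighbouring genes' 5p strands shared the peak in the elongation zone but had nearer matches elsewhere in the table. Whether the position of the genes has a part in the shared peak was not tested.

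For miR482-5p the nearest were miR159h/i-3p (0.33), miR159f-5p (0.38) and miR399g-5p (0.38). For miR2275d-3p they were miR156j-3p (0.14), miR171k/h-5p (0.18) and miR827-5p (0.19). The nearest profile of miR2275a-3p was miR171g-5p (0.06), that of miR2275b/c-3p was miR171f-5p (0.06), that of miR482-3p was miR171i-5p (0.06) and that of miR2275d-5p was miR399g-3p (0.10). Small distances among these last 4 come with small ranges, from 0.49 to 0.98 log2 units over the 6 groups.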

How the data were processed

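Total RNA (Trizol) was tailed and biotin-labelled with a FlashTag HSR kit, 10 µg a sample, per the labels' protocols. The submitters' processing notes name Affymetrix Expression Console. How background was corrected and arrays were normalized is not stated there. Per the file headers, the authors deposited the bi-weight average log2 signal of each of the 6 groups of 3 arrays, an ANOVA p-value for all conditions, and its FDR p-value.

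From each ANOVA p-value F was computed (5 and 12 degrees of freedom), and the residual variance was taken as 3 times the variance of the averages over F. Variances were moderated with squeezeVar of limma 3.58.1 in R 4.3.3 (prior degrees of freedom 1.945). Benjamini-Hochberg adjustment ran over 228 probe sets within each of 9 contrasts and an interaction F test. Bi-weight averages were treated as means, with equal spread in all groups. Since the table was preselected on the same p-value, the adjusted values are approximate. The method was run on simulated data with normal errors, ordinary means and equal spread in all groups. That run cannot test whether bi-weight averages act as means. In addition, 6 alternatives were tried. P-values measure the spread between arrays, whose number limits the precision; no read depth exists for arrays. Members are all rows of both families. The other families came from a written list, of which miR828 and miR403 were not analysed here, and the 3 nearest profiles were named per member. Members and lists were chosen with earlier results of these data known.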

Additional observations from a re-analysis of the deposited data

How the results depend on the processing

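Of the 29 differences called for single profiles of miR2275 and miR482, all 29 were called without moderation and with 1 probe set per profile, 21 with the recovered SD enlarged 1.2 times and 23 with quantile normalization, with the direction kept. With median subtraction 19 kept direction and call and 10 changed sign. That setting raises every difference between zones, since the group medians differed by -0.015 to -3.685 from those of the earlier zone. A rise could not turn under it, so rises kept under it are no support. With quantile normalization all rises of the 3p strands into the mature zone grew, so those kept there are no support either. The filter on low values keeps the 4 profiles that reach log2 2 in some group, so calls kept under it are no support. Values that changed sign with median subtraction are given next, whether or not they had been called. In the mature zone under chilling they were 2.04 for miR2275a-5p, 2.40 for miR482-3p, 2.28 for miR482-5p and for miR2275d-5p and 2.27 for miR2275b-5p. In control leaves, for elongation zone against meristem, they were 0.06 for miR2275d-3p, 0.07 for miR2275a-3p and 0.03 for miR2275d-5p. None of the values so far had been called. Between the mature and the elongation zone they were, in chilled leaves, 0.71 for miR2275a-5p, 3.26 for miR482-5p, 1.64 for miR2275b-5p and 2.84 for miR2275d-5p. In control leaves they were 0.695 for miR482-5p, 0.045 for miR2275b-5p and 0.775 for miR2275d-5p. Here miR482-5p in both conditions and miR2275d-5p in control leaves had not been called. Between the mature zone and the meristem they were, in chilled leaves, 1.975 for miR2275a-5p, 1.845 for miR482-5p, 3.005 for miR2275b-5p and 2.705 for miR2275d-5p. In control leaves they were 0.265, 0.125, 1.205 and 0.805 for the same strands. There miR2275b-5p had not been called in either condition. By its construction median subtraction moves all differences of a comparison by the same amount. With quantile normalization -0.01 for miR2275b/c-3p in control and -0.035 for miR2275a-3p in chilled leaves, between elongation zone and meristem, changed sign, and the cause was not tested.

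The count over all probe sets was 19 in the chilled meristem, against 3 with median subtraction, 4 without moderation, 2 with 1 probe set per profile and 1 with the enlarged SD. In the chilled elongation zone it was 2, against 1 with quantile normalization, 4 with median subtraction, 5 without moderation, 4 with 1 probe set per profile and 1 with the enlarged SD. In the chilled mature zone it was 32, against 50, 204 and, with 1 probe set per profile, 21. The split under chilling was 4 higher and 15 lower in the meristem, against 12 and 8 after quantile normalization and 2 and 1 after median subtraction, and 10 and 22 in the mature zone, against 28 and 22, and 204 and 0. For zones differing in their chilling effect it was 16, against 39, 194, 10 and, with the enlarged SD, 0. With 1 probe set per profile the count between elongation zone and meristem was 66, against 118 probe sets, in chilled and 52, against 106, in control leaves (54 with the enlarged SD), and between mature zone and meristem 109, against 177, in chilled and 81, against 133, in control leaves. That setting is a separate fit over 147 profiles, with fewer probe sets tested. With quantile normalization the count between mature and elongation zone was 91 against 148 in chilled and 72 against 113 in control leaves. For the other changes the cause was not tested. No paired analysis was possible because the table holds group averages without replicate numbers, and leaving out each replicate was not run for the same reason. Of the 48 averages of miR2275 and miR482, 39 lay under the working limit of log2 2. A background signal of the arrays was not analysed here, so how far these averages lie above it was not tested.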
